A study of Mus musculus with 2 samples.

Results

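The genes described here encode the proteases that cut the extracellular matrix and the proteins that restrain them: 15 matrix metalloproteinases (MMPs), 14 Adamts proteases, the 4 Timps and Reck. The members were all probe sets annotated to a list of 34 gene symbols, drawn up by family. Of the 34 genes, 31 had at least 1 probe set assigned to that gene alone, and these genes had 60 probe sets among 45037 non-control probe sets. No probe set used here was annotated to Mmp15, Adamts2 or Adamts17. The samples were 2 pools of arteries microdissected from untreated ICR mouse embryos at E13.5 (mid-gestation), 1 of internal carotid arteries and 1 of external carotid arteries, with no genetic change named in the labels. Per the design text, vessel segments of 22 embryos went into the pools. Each pool was read on 1 Affymetrix array after a pair of amplification rounds, and the design text states that no replicate was made. The series concerns endothelin and the axons of the superior cervical ganglion, which sends sympathetic axons along these vessels. A ratio here is therefore 1 array over 1 array, with no spread between samples, no standard error and no p-value, and differences between vessels, dissections and amplifications cannot be told apart.

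MMPs are zinc enzymes made as inactive precursors. Some are secreted and others are tethered to the cell membrane, and together they cut collagens, gelatin, elastin and many non-matrix proteins. Adamts proteases are secreted zinc enzymes with thrombospondin repeats. One branch cuts the large proteoglycans versican and aggrecan, and another trims the amino end of procollagens. Timps bind the active site of these enzymes, and Reck is a membrane-anchored inhibitor needed for vessel formation in the embryo. In a growing artery these proteins turn over the matrix around endothelial and smooth muscle cells, and migrating axons and neural crest cells also use them.

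In the values as deposited, no measured gene of the list reached a 2-fold difference between the 2 pools. Signals are linear MAS5 intensities, and the median signal of each array without its controls, 47.5 for the internal and 52.3 for the external carotid array, served as a floor under which a signal was not used. A gene was read from its brightest probe set, and ratios are log2 of external over internal carotid signal. Of the 31 genes, 25 gave a ratio or, for Adamts20, a lower bound, and 6 did not. None of the 25 had an external excess of 2-fold or more, which 2.1% of the 12408 measured genes had, and none had an internal excess of that size, which 1.47% had. With so few members, shares of that size give less than 1 gene in either direction, so the absence of a call does not set the family apart from other genes. None of the 43 member probe sets with a ratio or bound reached 2-fold by that value either. The 4 bounds among them are least values, so a larger difference is possible there. The widest as read, a Timp4 probe set with its external signal under the floor, had 76.8 internal and 33.6 external. That is 2.29-fold as read, against a bound of 1.47-fold. Over all probe sets of 1 gene the shares at 2-fold were 1.93% external and 1.37% internal. The log2 ratios of the 25 genes ran from -0.91 for Adamts8 to 0.69 for Reck, with a median of 0.13, against 0.06 over all measured genes. As a technical yardstick, log2 ratios of probe sets of the same gene differed with a standard deviation (SD) of 0.34, or 1.26-fold, pooled over 4315 genes. The same SD over the 8 member genes with several measured probe sets was 0.29.

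**Figure D1:**
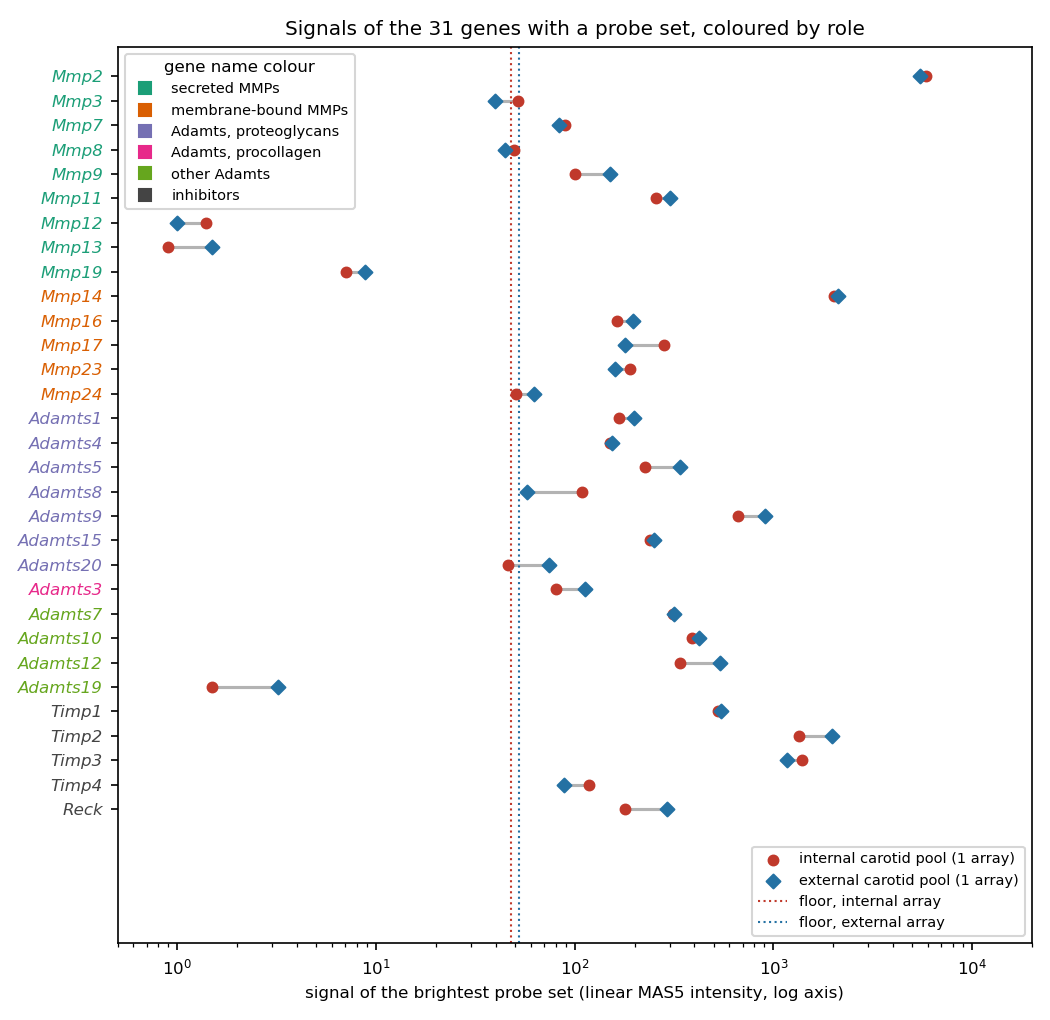
Signal of the brightest probe set of each of the 31 genes on the internal carotid array (circles) and the external carotid array (diamonds), on a log axis of linear MAS5 intensity, with each array's floor as a dotted line. Gene names are coloured by role, and no level should be compared between genes, since each comes from another probe set. The paired points lie close together, with Adamts8 (108.6 internal, 57.8 external) the widest pair above the floors.

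At a lower threshold of 1.5-fold, 5 of the 25 genes were higher in the external carotid pool, a threshold at which 9.2% of all measured genes were, and 2 were higher in the internal carotid pool, where 5.38% were. The 5 were Reck, Adamts12, Adamts20, Mmp9 and Adamts5, the latter pair at 1.502-fold and 1.501-fold and so right at the threshold, and the 2 were Adamts8 and Mmp17. These counts depended on scaling. Centring the arrays on their medians shifted the median log2 ratio of all genes by -0.14 and left none of the measured members at 1.5-fold in the external carotid pool, while quantile normalization and loess each left 3. The same external share over all genes was 5.06% after centring, 6.52% after quantile normalization and 6.39% after loess, and the internal share 9.24%, 6.19% and 6.37%. The 2 internal-high genes stayed past 1.5-fold under all 3 scalings, and Adamts8 then also passed 2-fold, at log2 ratios of -1.05 centred, -1.03 quantile-normalized and -1.03 loess-adjusted. Log2 ratios were above 0 in 18 of the 25 genes (72.0%), against 56.1% of all measured genes. The count was 12 of 27 after centring, where the share of all genes was 40.3%, and 17 of 27 after quantile normalization and after loess, where it was 52.8% and 52.2%.

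Among secreted MMPs, Mmp2 and Mmp9 are the gelatinases. Mmp2 had a signal of 5866 in the internal and 5470 in the external carotid pool, a log2 ratio of -0.10, and its other probe set read 4332 and 4380, a log2 ratio of 0.02. Both Mmp2 pairs lay far above the floors and were near equal, and the sign of the brighter one turned to 0.22 after quantile normalization and 0.19 after loess. Mmp9 had a signal of 100.4 in the internal and 150.8 in the external carotid pool, a log2 ratio of 0.59, which is larger than the probe set SD. Its further probe set lay under both floors, at 6.20 and 12.6, so the difference rests on 1 probe set. Mmp9 is stored in neutrophil granules, and the 7 granulocyte markers examined had a median log2 ratio of -1.20, whose part in the Mmp9 value was not tested. Mmp11, or stromelysin-3, an MMP of mesenchyme, read 256.5 and 301.7 in internal and external pools (log2 ratio 0.23), within the probe set SD.

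Of the remaining 6 secreted MMPs only Mmp7 gave a ratio. Mmp3, Mmp7, Mmp8, Mmp12 and Mmp13 lie in a cluster of MMP genes on chromosome 9, per the RefSeq gene table. Mmp7, or matrilysin, was the 1 member of the cluster above both floors, with 89.6 internal and 83.3 external, a log2 ratio of -0.11. The stromelysin gene Mmp3 read 51.9 internal and 39.7 external, and the neutrophil collagenase gene Mmp8 read 49.5 and 44.5. For both, the internal signal passed its floor, the external did not, and no fold could be given, since the internal signal was also under the external floor. Mmp12, the macrophage elastase, read 1.4 internal and 1.0 external, and Mmp13, a collagenase of cartilage and bone, 0.9 and 1.5. Outside the cluster, both probe sets of Mmp19 lay under both floors, the brighter at 7.1 internal and 8.8 external. Of the same cluster but outside the list, Mmp1a, Mmp1b, Mmp10 and Mmp20 also lay under both floors, with signals from 1.9 to 44.5. Macrophage markers were above the floors in the same pools, for example Csf1r at 6705 internal and 4597 external, while Mmp12 was not above the floor in either.

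Most of the cluster members also share a promoter feature that the list did not use. RefSeq promoter windows (GRCm38.p6) were found for 22 of the 34 genes, as 25 windows where some genes have a second start. Mmp2, Mmp9, Mmp16, Mmp17, Mmp19, Adamts4, Adamts5, Adamts7, Adamts8, Adamts10, Adamts15 and Adamts19 had no window and were not searched. The search was for TGAGTCA or its reverse complement TGACTCA, the binding sequence of the Fos and Jun dimer AP-1. In the 250 bases before the start, it was present in 4 of the 5 cluster genes. It was present in none of the other 17 genes that had a window, and several MMPs outside the cluster were not among them. The same search found it in 4.46% of all 32851 windows. Shares over all windows are counted by window, while a member gene is counted if any of its windows has the match. The GC box GGGCGG, or CCGCCC on the other strand, was present in none of the 5 and in 13 of the 17, against 32.7% of all windows. The count of CpG dinucleotides ran from 0 to 7 in the 7 windows of the cluster genes and from 2 to 35 in the 18 others. The 100 bases before the start are shown for the 4 cluster genes with the AP-1 sequence, for Mmp14 and Timp2, which were far above the floor in both vessels, and for Reck, whose log2 ratio was the highest. They are written 5′ to 3′ on the gene's strand, with the AP-1 sequence or the GC box in capitals.
Mmp3 (chr9:7445722-7445821, plus strand): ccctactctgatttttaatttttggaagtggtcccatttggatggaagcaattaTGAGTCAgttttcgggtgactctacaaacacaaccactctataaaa
Mmp7 (chr9:7691990-7692089, plus strand): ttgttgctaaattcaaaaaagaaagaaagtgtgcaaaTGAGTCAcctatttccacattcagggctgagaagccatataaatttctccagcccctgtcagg
Mmp12 (chr9:7347274-7347373, plus strand): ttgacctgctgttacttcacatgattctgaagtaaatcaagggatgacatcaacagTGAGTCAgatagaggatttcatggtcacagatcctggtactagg
Mmp13 (chr9:7272414-7272513, plus strand): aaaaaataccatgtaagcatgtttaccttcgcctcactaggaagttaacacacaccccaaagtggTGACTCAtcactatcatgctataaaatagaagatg
Mmp14 (chr14:54431498-54431597, plus strand): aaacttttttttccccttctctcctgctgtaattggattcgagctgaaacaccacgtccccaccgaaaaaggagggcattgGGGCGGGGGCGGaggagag
Timp2 (chr11:118355412-118355511, minus strand): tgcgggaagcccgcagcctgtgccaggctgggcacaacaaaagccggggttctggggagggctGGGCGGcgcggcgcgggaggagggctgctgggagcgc
Reck (chr4:43875430-43875529, plus strand): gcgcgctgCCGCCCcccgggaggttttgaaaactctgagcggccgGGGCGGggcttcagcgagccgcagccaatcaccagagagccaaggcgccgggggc
The AP-1 sequence began 46 bases before the start in Mmp3 and 35 in Mmp13. It began 63 bases before the earlier of 2 starts in Mmp7 and 44 before the later of 2 in Mmp12. The other starts of Mmp7 and Mmp12 had no match in their 250 bases, nor did Mmp8. The sequence TATAAA, searched on the gene's strand, was also present before the start of Mmp3, Mmp7, Mmp13 and Adamts1, against 7.59% of all windows. A match describes these letters only, and neither array bears on whether AP-1 was bound.

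Probe sets of the membrane-bound MMPs differed in the size of the ratio. Mmp14, also called MT1-MMP, activates the Mmp2 precursor at the cell surface. Its brightest probe set read 2014 in the internal and 2104 in the external carotid pool, a log2 ratio of 0.06. Its other 2 probe sets read 74.6 and 116.6 (log2 ratio 0.64) and 63.1 and 122.1 (log2 ratio 0.95). All 3 pairs had the external signal above the internal, but the sizes spanned more than the probe set SD, and the brightest turned to -0.08 after centring. Over all genes the log2 ratio declined with signal, from a median of 0.17 in the dimmest of 10 equal groups of probe sets to -0.17 in the brightest, so bright probe sets sat lower. Set against the median of its own signal group, the brightest Mmp14 probe set was 0.23 above and the others 0.54 and 0.84 above.

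Mmp16, a close relative of Mmp14, had a similar spread. Its 3 measured probe sets read 162.3 and 195.3 in internal and external pools, 117.5 and 180.7, and 103.3 and 199.9, with log2 ratios of 0.27, 0.62 and 0.95. The external signal was above the internal in each, at 1.20-fold for the brightest and 1.94-fold for the widest. A further probe set lay under both floors. Mmp24, a membrane-type MMP of the nervous system, stood near the floors at 50.4 and 62.7 (log2 ratio 0.32), and its other 2 probe sets gave no fold. The 7 measured general neuron markers all exceeded their internal signals by 2-fold or more, with a median log2 ratio of 1.98.

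Both remaining membrane-bound members had lower external signals. Mmp17, which is held in the membrane by a lipid anchor, read 282.0 in the internal and 178.0 in the external carotid pool from its 1 probe set, a log2 ratio of -0.66, an internal excess of 1.58-fold. It stayed below 0 under all 9 alternatives, between -0.80 and -0.52. With 1 probe set, only the scalings and adding the floor to both signals could change the Mmp17 value. Mmp23 read 190.6 and 158.5, a log2 ratio of -0.27, with -0.03 at its other probe set, both within the probe set SD.

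**Figure D2:**
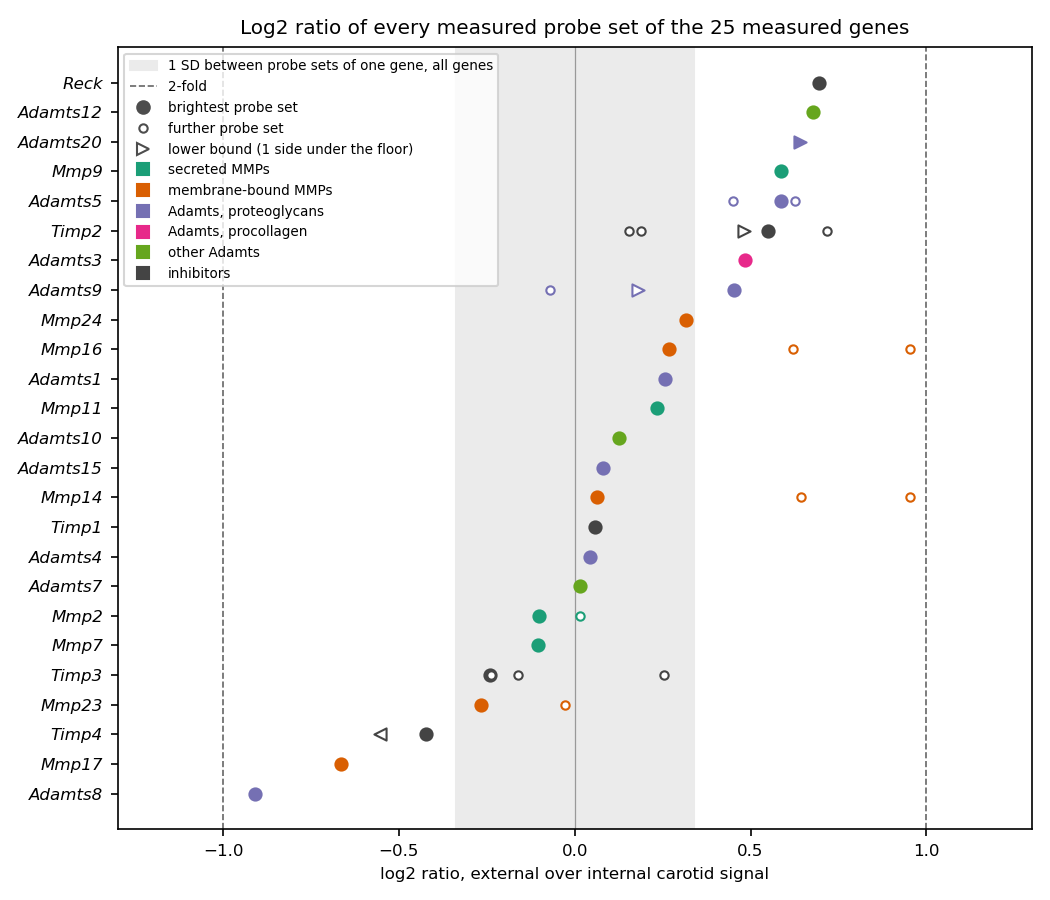
Log2 ratio of external over internal carotid signal for every probe set with a ratio (circles) or lower bound (triangles) of the 25 measured genes, ordered by the brightest probe set (filled). The grey band is 1 SD between probe sets of the same gene over all genes (0.34) and the dashed lines mark 2-fold. No point passes a dashed line, where each bound is drawn at its least value. The open circles of Mmp14 and Mmp16, at 0.95, come nearest on the external side.

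The Adamts proteases leaned to the external carotid pool in the values as deposited. Of 11 measured members 10 had a log2 ratio above 0, with a median of 0.26, where 56.1% of all measured genes were above 0. After centring 6 of the 11 were above 0, where 40.3% of all genes were, and 8 were after quantile normalization and after loess, where 52.8% and 52.2% of all genes were. Adamts5, the main aggrecan-cutting enzyme of cartilage and a versican protease in the embryo, had 3 measured probe sets. They read 226.6 internal and 340.2 external, 237.0 and 323.7, and 175.4 and 270.7, with log2 ratios of 0.59, 0.45 and 0.63. The external signal was higher at each of the 3, and a further probe set lay under both floors. The gene's value stayed between 0.45 and 0.59 under all 9 alternatives, though other floors could not move it.

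Adamts9, which also cuts versican and is made by endothelium, read 665.5 internal and 910.9 external at its brightest probe set, a log2 ratio of 0.45. Its second measured probe set read 86.7 and 82.5, a log2 ratio of -0.07, and the third gave a lower bound of 0.18, so its probe sets disagreed in sign. Adamts20, needed for the migration of pigment cell precursors, read 74.0 in the external carotid pool and 46.4, just under the floor, in the internal, an external excess of at least 1.56-fold. Adamts1, a versican protease induced in many tissues, had 166.8 and 199.3 (log2 ratio 0.26). Adamts4 and Adamts15, both proteoglycan-cutting enzymes, were near equal at log2 ratios of 0.04 and 0.08, and Adamts4 was below 0 under all 3 scalings, to -0.10 after centring, while Adamts15 was below 0 after centring alone.

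Adamts8 went the other way and was the lowest of the 25 genes. Its 1 probe set read 108.6 in the internal and 57.8 in the external carotid pool, 1.88-fold higher in the internal, a log2 ratio of -0.91. The external signal stood near the floor of 52.3, and a floor at the 75th percentile of each array left no ratio. With the floor added to both signals the log2 ratio was -0.50. Against the proteoglycan-cutting members above it, whose log2 ratios ran from 0.04 to 0.64, Adamts8 was the 1 of 7 below 0 in the values as deposited.

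Of the procollagen-trimming enzymes only Adamts3, which also helps to activate the lymphatic growth factor Vegfc, was measured. It read 80.1 internal and 112.0 external, a log2 ratio of 0.48, and its other probe set lay under both floors. Adamts12, a protease related to Adamts7, read 338.2 in the internal and 540.6 in the external carotid pool, 1.598-fold higher in the external (log2 ratio 0.68), from 1 measured probe set. It was between 0.54 and 0.68 under all 9 alternatives. With 1 measured probe set, only the scalings and adding the floor to both signals could change the Adamts12 value. Adamts7 read 313.2 and 316.4 (log2 ratio 0.01) and Adamts10, which binds fibrillin microfibrils, 388.7 and 424.0 (log2 ratio 0.13). Both were near equal. Adamts7 was below 0 under all 3 scalings, to -0.12 after centring, while Adamts10 was below 0 after centring alone. Adamts19 lay under both floors, at 1.5 internal and 3.2 external.

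The inhibitors lay on both sides of 0. Reck had the highest log2 ratio of all 25 genes, with 179.4 in the internal and 290.1 in the external carotid pool from its 1 probe set, 1.62-fold higher in the external (log2 ratio 0.69). It stayed between 0.55 and 0.69 under all 9 alternatives. With 1 probe set, only the scalings and adding the floor to both signals could change the Reck value. Timp2, which both inhibits MMPs and serves with Mmp14 in activating Mmp2, had 4 measured probe sets. They read 1342 internal and 1965 external, 1505 and 1675, 1048 and 1194, and 135.6 and 222.9, with log2 ratios of 0.55, 0.15, 0.19 and 0.72. The external signal was higher in each, and a further one gave a lower bound of 0.48, but the size depended on the probe set, from 1.11-fold to 1.64-fold. The last lay under both floors.

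Timp1 was near equal, at 523.5 and 545.0 (log2 ratio 0.06, and -0.08 after centring). Timp3, the matrix-bound inhibitor that also restrains Adamts enzymes, read 1387 internal and 1174 external, a log2 ratio of -0.24. Its further probe sets gave -0.24, -0.16 and 0.25, so they disagreed in sign, and each lay within the probe set SD. Timp4, the inhibitor found mainly in heart and muscle, read 117.7 and 87.8, a log2 ratio of -0.42. Its other probe set read 76.8 internal and 33.6 external, under the floor, and gave an internal excess of at least 1.47-fold. Both Timp4 probe sets therefore pointed to the internal carotid pool, and Timp2 and Timp4 lay on opposite sides of 0 under all alternatives that gave a value.

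**Figure D3:**
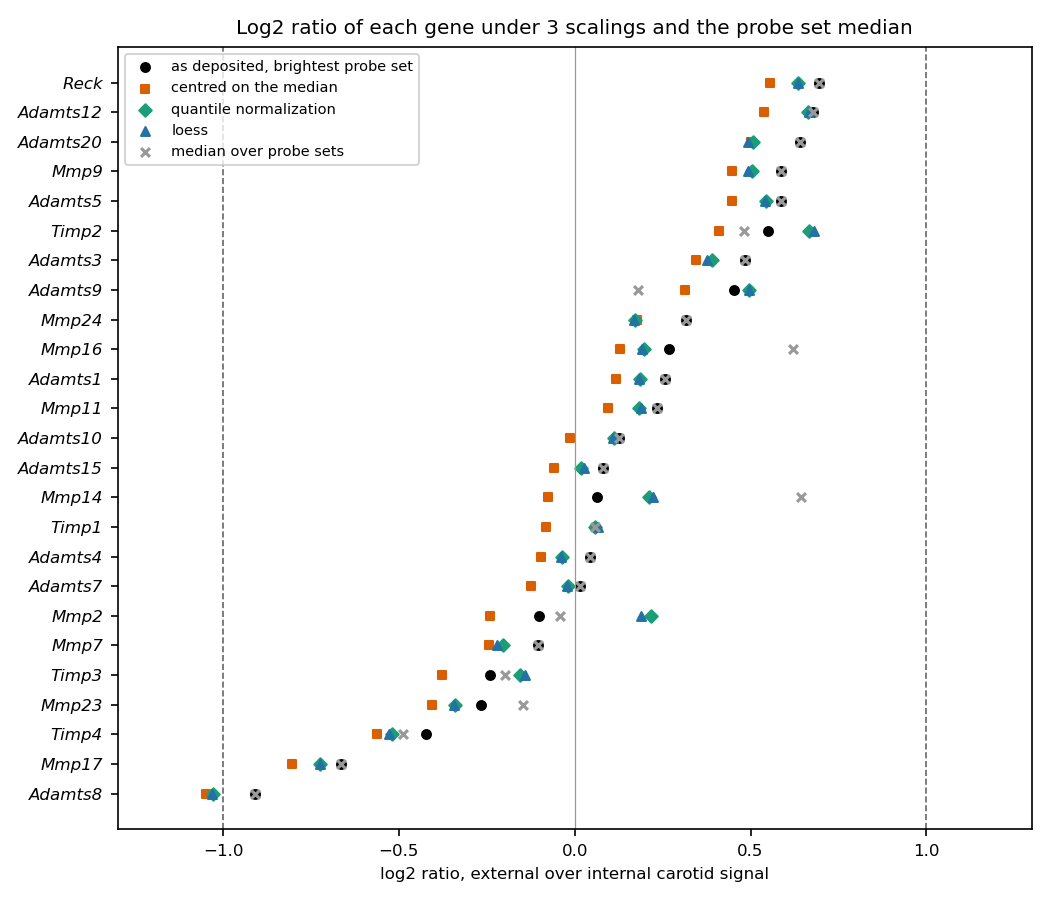
Log2 ratio of external over internal carotid signal for each of the 25 genes as deposited, centred, quantile-normalized, loess-adjusted and as the median of its probe sets, with dashed lines at 2-fold. Of the 18 genes above 0 as deposited, 12 stayed above 0 under all 3 scalings, and of the 7 below 0, 6 stayed below. Mmp14 and Mmp16 moved most with the median over probe sets, to 0.64 and 0.62.

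Genes that work with these proteases were examined from lists drawn up alongside the members. Of 6 measured relatives outside the list, 3 were above 0 and 1 passed 2-fold. Adamts18, a related orphan protease, read 78.3 internal and 208.6 external, an external excess of 2.66-fold (log2 ratio 1.41). Its second measured probe set gave 0.66, and under a 75th percentile floor, or taking the median of its probe sets, it no longer passed 2-fold. Adamtsl4, a protein of the fibrillin matrix without protease activity, had a log2 ratio of 0.54, and the lowest were Adamts16 at -0.74 and Adamtsl5 at -0.49. The 10 genes of the related Adam family had a median of 0.05 and none past 2-fold. Their highest were Adam15 at 0.43 and Adam22 at 0.21, and their lowest Adam33 at -0.78 and Adam23 at -0.30. In the plasminogen activator system, which can activate MMP precursors, 2 of the 5 genes with a probe set were measured, the activator gene Plat at -0.38 and the urokinase receptor gene Plaur at 0.12.

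Among procollagen C-proteinases and their enhancers, 3 of 5 were measured and all 3 were below 0 at the brightest probe set. Pcolce2, an enhancer of that cleavage, read 148.7 in the internal and 50.2, under the floor, in the external carotid pool, an internal excess of at least 2.84-fold. The log2 ratio was -0.94 with the floor added to both signals, and a 75th percentile floor left no value. Bmp1, the C-proteinase itself, and Pcolce had log2 ratios of -0.15 and -0.05. Their other measured probe sets gave 0.38 and 0.50, so the probe sets of both genes disagreed in sign. Pcolce also turned to 0.29 after quantile normalization and 0.24 after loess. Of 9 measured activators, receptors and partners 5 were above 0 and none passed 2-fold, with the proteoglycan gene Spock1 at 0.77, the receptor gene Cd44 at 0.33, Pcsk6 at -0.34, and Lcn2, which binds Mmp9, at a bound of -0.57. The 7 cathepsins and other matrix proteases had a median of -0.28, with the serine protease genes Htra3 and Htra1 highest at 0.72 and 0.59, and Fap and Ctsk lowest at -0.54 and -0.50.

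The matrix substrates also stayed within 2-fold. Of 6 proteoglycan substrates and partners, Ncan and Acan, which encode neurocan and aggrecan, were highest at 0.57 and 0.53, and Has2 and Bcan lowest at -0.49 and -0.42. Vcan, the versican gene, was near equal at 0.08 from its brightest probe set, with others down to -0.82. Of 8 fibrillar and basement membrane collagen genes 7 were below 0, with a median of -0.29, Col2a1 highest at 0.75, Col1a1 next at -0.01, and Col4a1 and Col5a1 lowest at -0.55 and -0.38. The collagen direction depended on scaling, since the median was 0.07 after quantile normalization and -0.0025 after loess. It also depended on the probe set. Other probe sets reached 0.70 for Col5a1, 0.42 for Col5a2, 0.16 for Col1a2 and 0.12 for Col4a1. Col1a1 and Col3a1 were below 0 at every measured probe set. With the median over probe sets the list median was -0.03, and 3 of the 8 genes were above 0.

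**Figure D4:**
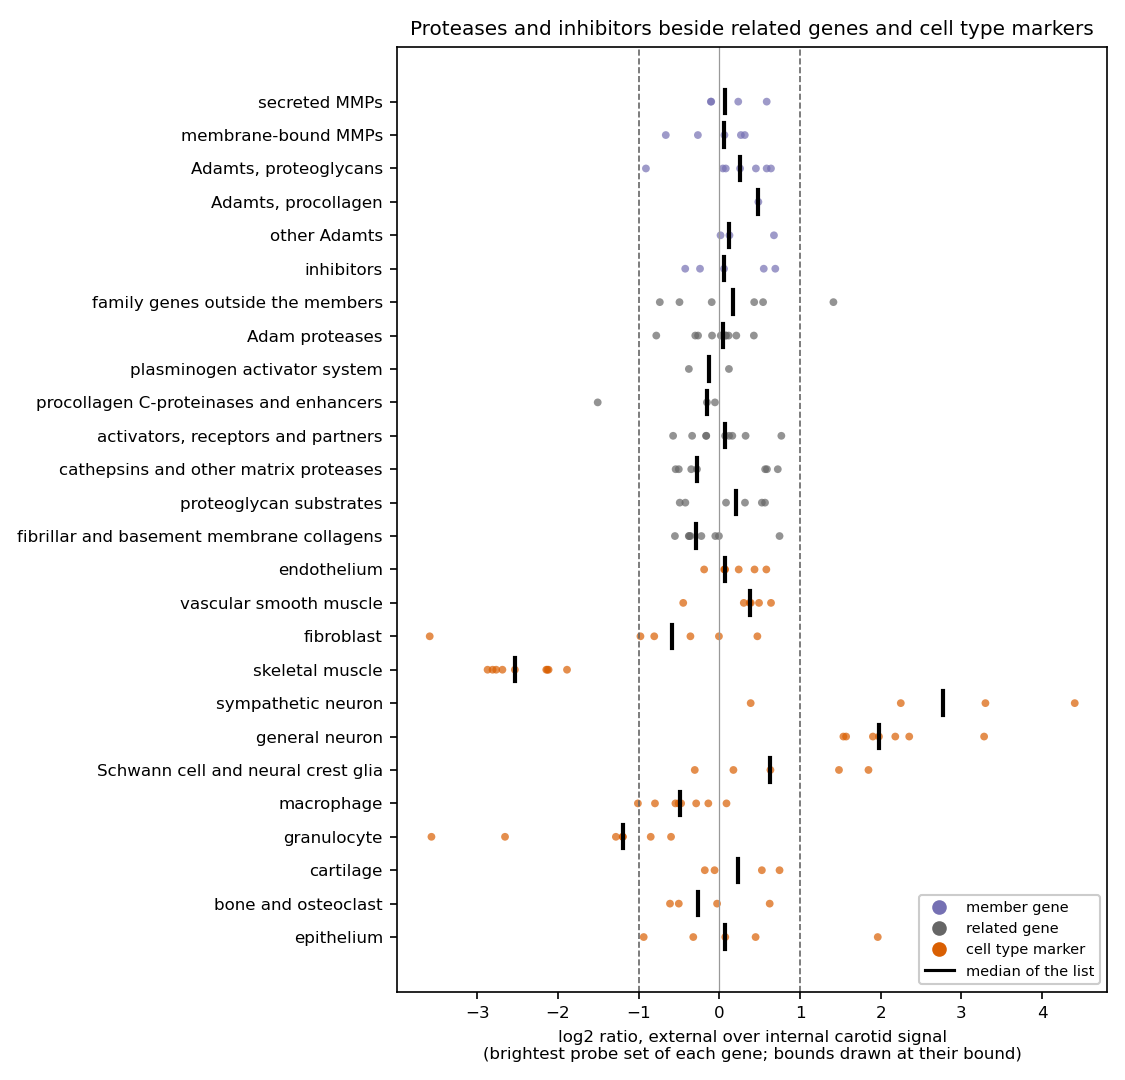
Log2 ratio of external over internal carotid signal for the measured genes of each list (points) with the list's median (bar) and dashed lines at 2-fold, for the member groups, related matrix genes and cell type markers. As deposited, all member groups lie inside the 2-fold lines, while the skeletal muscle and neuron markers lie outside them except Hand2 of the sympathetic list, at 0.39.

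The pools held RNA of other tissues besides arteries, in unequal amounts. Of 8 endothelial markers 7 were measured, with a median log2 ratio of 0.07 and Pecam1 under both floors. Endothelial signals summed to 2504 internal and 2834 external. The 6 smooth muscle markers were all measured, with a median of 0.38 and 5 above 0. Smooth muscle sums went the other way, at 12493 internal and 10763 external. Acta2, at 9482 internal and 6952 external, was the 1 smooth muscle marker below 0. The 9 skeletal muscle markers all had an internal excess of 2-fold or more, with summed signals of 12825 internal and 2280 external, and with Myh8 under the external floor alone. The sympathetic neuron markers had 3 of 4 measured genes with an external excess of 2-fold or more, summed signals of 1422 and 4788, and Slc18a2 and Gata3 under both floors. General neuron markers summed to 1365 and 7016, with Snap25 under both floors, and 2 of 5 measured Schwann cell and neural crest markers had an external excess of 2-fold or more, with sums of 1900 and 2682. Granulocyte markers, 5 of 7 with an internal excess of 2-fold or more, summed to 2322 and 409.5, and macrophage markers, 1 of 8, to 14885 and 9935. Of the 6 fibroblast markers, 1 had an internal excess of 2-fold or more (sums 18336 and 14347). Cartilage markers summed to 882.3 and 1079 with Sox9 not measured, bone and osteoclast markers to 432.3 and 429.2, and epithelial markers to 896.2 and 1351. As deposited, the medians of the skeletal muscle, granulocyte, macrophage, fibroblast, and bone and osteoclast lists were below 0. The medians of the neuronal, glial, smooth muscle, endothelial, cartilage and epithelial lists were above 0. Not all of these sides held under the 3 scalings. The cartilage median was below 0 under each, at -0.14 after centring. After centring the endothelial and epithelial medians were both -0.07, and the epithelial median was -0.0006 after loess. Of the measured members, 7 were below 0 and 18 above as deposited, so each shared its side with several lists in those values. The part of those tissues in the protease and inhibitor values was not tested. In such pools fewer cells of a type and less RNA per cell cannot be told apart.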

How the data were processed

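Arrays of 2 mouse artery pools were compared, 1 per vessel. Per the submitters' processing notes the deposited values were made with GCOS 1.4 and MAS5. They are linear signal intensities, and the authors' deposited intensity table has the same 2% trimmed mean, 150.0, on both arrays, so it was used as deposited. Of 45037 non-control probe sets, 34945 had 1 gene in the platform annotation, 932 several and 9160 none listed. Symbols were updated by gene number for 34741 through RefSeq (GRCm38.p6), which also gave the promoter windows, and 18193 genes resulted.

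Log2 ratios were taken from the probe set with the highest mean log2 signal. A signal under its array's floor gave the other side as a lower bound, and no fold where that bound pointed the wrong way. The number of arrays limits precision. Genes named were all members and the 2 highest and 2 lowest of each related list. Cell type lists are given by counts and sums. Members and lists were chosen with earlier results of these data known. The 1.5-fold counts under other settings were added after the data were examined. Alternatives were centring, quantile normalization, loess (span 0.3), floors at the 25th and 75th percentile or none, a pseudocount equal to the floor, the median over probe sets, no probe sets open to cross-hybridisation, and 1.5-fold and 3-fold thresholds. Steps were tested on simulated data. Python 3.11.15, numpy 2.4.6, pandas 2.3.3, statsmodels 0.14.6 and scipy 1.17.1 were used.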

Additional observations from a re-analysis of the deposited data

How the results depend on the processing

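The count of members at least 2-fold higher was 0 in each direction and stayed 0 under most settings. It was 1 on the external side with no floor, where Adamts19 passed at signals of 1.5 and 3.2, and 1 on the internal side, Adamts8, after centring, quantile normalization and loess. With a 1.5-fold threshold the counts were 5 external and 2 internal. The external 1.5-fold count was 7 with no floor and 7 with the median over probe sets, stayed 5 both without probe sets open to cross-hybridisation and under a 25th percentile floor, and fell to 0 after centring, 3 after quantile normalization, 3 after loess, 3 under a 75th percentile floor and 2 using the pseudocount, and the internal one to 1 under a 75th percentile floor and 0 using the pseudocount. The median log2 ratio of the members, 0.13, ran from -0.06 after centring to 0.18 with the median over probe sets, so its sign is not settled. Of 218 single-gene values under the alternatives, 215 moved by less than the probe set SD of 0.34. Many of the 218 could not move, so this count says little about precision. For a gene with a single probe set well above the floors, such as Reck, other floors return the same value. So do the median over probe sets and leaving out probe sets open to cross-hybridisation. Centring moves every ratio between signals above the floors by the same amount. The other 3 were Mmp14 and Mmp16 with the median over probe sets, at 0.64 and 0.62, and Adamts8 with the pseudocount, at -0.50. Over all genes, 2-fold calls split 261 external to 183 internal as deposited, 175 to 272 after centring, 203 to 219 after quantile normalization, 198 to 224 after loess, and 85 to 99 under a 75th percentile floor. No paired analysis was possible because each vessel has 1 array. Mmp3, Mmp8, Mmp24, Adamts8 and Adamts20 had a signal near the floor on at least 1 array, which limits their values.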
